A study of Mus musculus with 36 samples.

Results

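The mitochondrial ribosome proteins encoded in the nucleus were followed in primary mouse cells given butyrate or β-hydroxybutyrate (βOHB). Genes were taken as members when their symbol starts with Mrpl or Mrps and the annotation lists them as protein-coding, which gave 78 of the 54347 genes in the table, 49 of the large subunit (Mrpl) and 29 of the small subunit (Mrps). The genes were chosen by symbol, with no measured value, but the family as such was selected on its known butyrate responses in these libraries, so counts of members that changed under butyrate are given as a description and support nothing by themselves. All 78 members passed the filter on low counts, so no member was lost and none entered through 1 treatment group alone.

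RNA was sequenced from 4 kinds of primary cell of male mice, with 3 libraries in each of 12 groups and 36 libraries in all. Inguinal white fat gave the stromal vascular cells that were made into adipocytes, bone marrow gave the macrophages, hindlimb muscle gave the myotubes, and livers perfused with collagenase gave the hepatocytes. The labels give the strain C57Bl/6 for every library, but the study's methods name C57BL/6NHsd mice for the hepatocytes, so cell type and mouse stock cannot be told apart where hepatocytes are compared with the other cells. Medium during exposure differed too, with DMEM and serum for adipocytes and macrophages, differentiation medium for myotubes and Williams E medium for hepatocytes. Between cells kept in different media, cell type and medium cannot be told apart. Each cell type was exposed for 6 h to PBS (control), to 5 mM βOHB, given as the sodium salt of the R form, or to 5 mM sodium butyrate, and no group carried a genetic change. The labels do not say whether the 3 libraries of a group came from separate cultures or animals, so p-values measure the spread between these libraries, which may be technical.

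Mitochondria carry their own ribosomes, which translate a small set of respiratory chain subunits encoded in the mitochondrial genome. All proteins of these ribosomes are encoded in the nucleus and imported. The small subunit reads the messenger RNA and the large subunit joins the amino acids. Many of the proteins have a counterpart in bacteria, while others are particular to mitochondria. βOHB is the main ketone body, made by the liver when food is scarce. Butyrate, a short-chain fatty acid of gut bacteria, is known to inhibit histone deacetylases. βOHB carries a hydroxyl group that butyrate lacks.

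Library totals ranged from 18366289 to 23221473 estimated counts, and no library had to be left out. Levels are CPM, that is, counts relative to the library size, scaled with the TMM method, and a member was called raised or lowered at an adjusted p below 0.05 in edgeR over all 15340 tested genes. The defining markers matched the labelled cell types. Markers of adipocytes summed to between 6528 and 9042 CPM in adipocytes, those of macrophages to between 9919 and 16500 CPM in macrophages, those of myotubes to between 9223 and 20630 CPM in myotubes, and those of hepatocytes to between 30500 and 40710 CPM in hepatocytes. Markers of other cells were present too. Fibroblast markers summed to between 5841 and 6653 CPM in adipocyte controls, between 1507 and 1650 CPM in macrophage controls, mostly Col1a1, and between 1116 and 1412 CPM in myotube controls. All 5 hepatocyte markers were detected in the butyrate-treated myotubes, with sums of 28.4, 517 and 118 CPM, whereas 4 of 5 were at 0 in every control myotube library. Among the βOHB-treated myotubes, replicate 3 held 22.1 CPM of them.

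In untreated cells the family was lowest in macrophages. Together the 78 genes reached 1780 ± 26.1 CPM in macrophages (SD, n = 3), 2523 ± 90.5 CPM in myotubes, 2948 ± 60.7 CPM in adipocytes and 3428 ± 176 CPM in hepatocytes. The median member stood at 22.1 CPM in macrophages, 31.5 CPM in myotubes, 33.1 CPM in adipocytes and 38.1 CPM in hepatocytes. In bulk samples, fewer cells of a type and less RNA per cell cannot be told apart. Of the 78 members, 65 had their lowest mean in macrophages and none had its highest mean there, while 49 were highest in hepatocytes and 22 in adipocytes with TMM scaling, which became 32 and 33 with library totals alone. The control level differed between cell types for 77 of 78 members, beside 98.5% of all tested genes, and the exception was Mrps25, with an adjusted p of 0.351.

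Between pairs of control groups, 70 members were lower in macrophages than in hepatocytes and 2 were higher, beside 82.1% of all genes called in either direction. With library totals alone 63 were lower and 5 were higher. Against adipocytes, 72 members were lower in macrophages and 1 was higher, beside 77.5% called. Against myotubes, 62 were lower and 6 were higher, beside 82.2% called, and the 6 became 3 with RLE or upper quartile scaling. These directions held under each of the 4 library scalings tried. The order of adipocytes and hepatocytes did not: with TMM scaling 22 members were higher in adipocytes and 41 were lower (81.1% of all genes called), but with library totals alone 31 were higher and 28 were lower, and the median log2 difference of all genes went from 0.04 to 0.28. Myotubes lay between them and macrophages, with 47 members higher in adipocytes than in myotubes and 13 lower (78.2% called), and 11 members higher in myotubes than in hepatocytes and 55 lower (86.6% called), which became 22 and 41 with library totals alone.

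**Figure D1:**
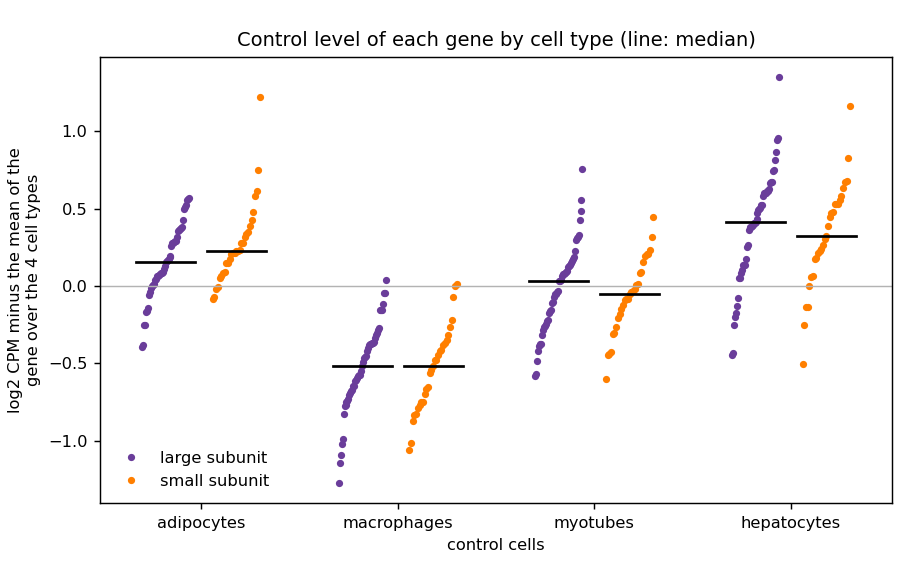
Control level of each of the 78 genes in the 4 cell types, as log2 of the mean CPM of 3 control libraries minus the mean of that gene over the 4 cell types. Points are genes, purple for the large and orange for the small subunit, and lines are medians. The macrophage points lie lowest for both subunits.

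Single members differed in how far they followed this order. Mrps18b, 1 of 3 mammalian relatives of the bacterial small-subunit protein S18, stood at 132, 118 and 119 CPM in hepatocyte controls and at 27.2, 27.9 and 26.3 CPM in macrophage controls, a log2 difference of -2.18 ± 0.068 (SE, adjusted p = 3.06e-23) for macrophages against hepatocytes. Mrps18b thus followed the order of the family, with a wide range, whereas Mrps6 was higher in adipocytes than in hepatocytes. Mrps6 was chosen after its values were seen, and its mean was 50.4 CPM in adipocytes but 15.3 CPM in hepatocytes, a log2 difference of 1.72 ± 0.114 (adjusted p = 9.58e-15). Its exons overlap those of Slc5a3 on the same strand, so reads of these genes may be split between them. Per kilobase of mean transcript length, Mrpl52, Mrpl42 and Mrpl20 had the highest mean control levels, at 110, 96.2 and 93.3 CPM per kb, and Mrps26, Mrps35 and Mrpl23 the lowest, at 4.87, 4.84 and 4.45 CPM per kb. The order at the top depended on the length used. When all exons of a gene were counted, Mrpl52, Mrpl42 and Mrpl20 ranked 4, 38 and 6 of 78, and Mrps21, Mrpl12 and Mrpl34 came first at 49.8, 47.5 and 45.7 CPM per kb.

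Butyrate lowered more members than it raised in each cell type with TMM scaling, an order that turned in macrophages with library totals alone. In adipocytes 10 members were raised and 40 lowered, in macrophages 21 and 35, in myotubes 9 and 50, and in hepatocytes 13 and 43. Without the filter on low counts the raised members numbered 6 in adipocytes and 3 in myotubes. Calls in either direction were common among all tested genes, of which 61.0% were called in adipocytes, 65.0% in macrophages, 66.5% in myotubes and 63.5% in hepatocytes, so the number of members called is close to the background. The directions were less even than in the background. Among all tested genes 30.7% were raised and 30.3% lowered in adipocytes, 31.9% and 33.2% in macrophages, 33.1% and 33.4% in myotubes, and 31.0% and 32.4% in hepatocytes, whereas 51.3%, 44.9%, 64.1% and 55.1% of the members were lowered in these cell types in turn.

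With TMM scaling the medians of both subunits were below 0. The median log2 fold change of the 49 large-subunit genes was -0.12 in adipocytes, -0.09 in macrophages, -0.24 in myotubes and -0.22 in hepatocytes. For the 29 small-subunit genes it was -0.22, -0.24, -0.29 and -0.29 in the same order, and the median of all tested genes was within 0.01 of 0 in each. Over all members the macrophage median was -0.12, and -0.0594 without butyrate replicate 2. The large subunit holds 49 of the 78 members, and raised members numbered 9 large and 1 small in adipocytes, 16 and 5 in macrophages, 6 and 3 in myotubes, and 10 and 3 in hepatocytes. Lowered members numbered 23 large and 17 small in adipocytes, 18 and 17 in macrophages, 31 and 19 in myotubes, and 27 and 16 in hepatocytes. All libraries of the butyrate group lay below all control libraries for 44, 35, 49 and 48 members in adipocytes, macrophages, myotubes and hepatocytes, and above them for 13, 20, 9 and 16, beside 33.6%, 37.3%, 32.5% and 35.5% of all tested genes below and 33.7%, 34.9%, 32.3% and 33.0% above.

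**Figure D2:**
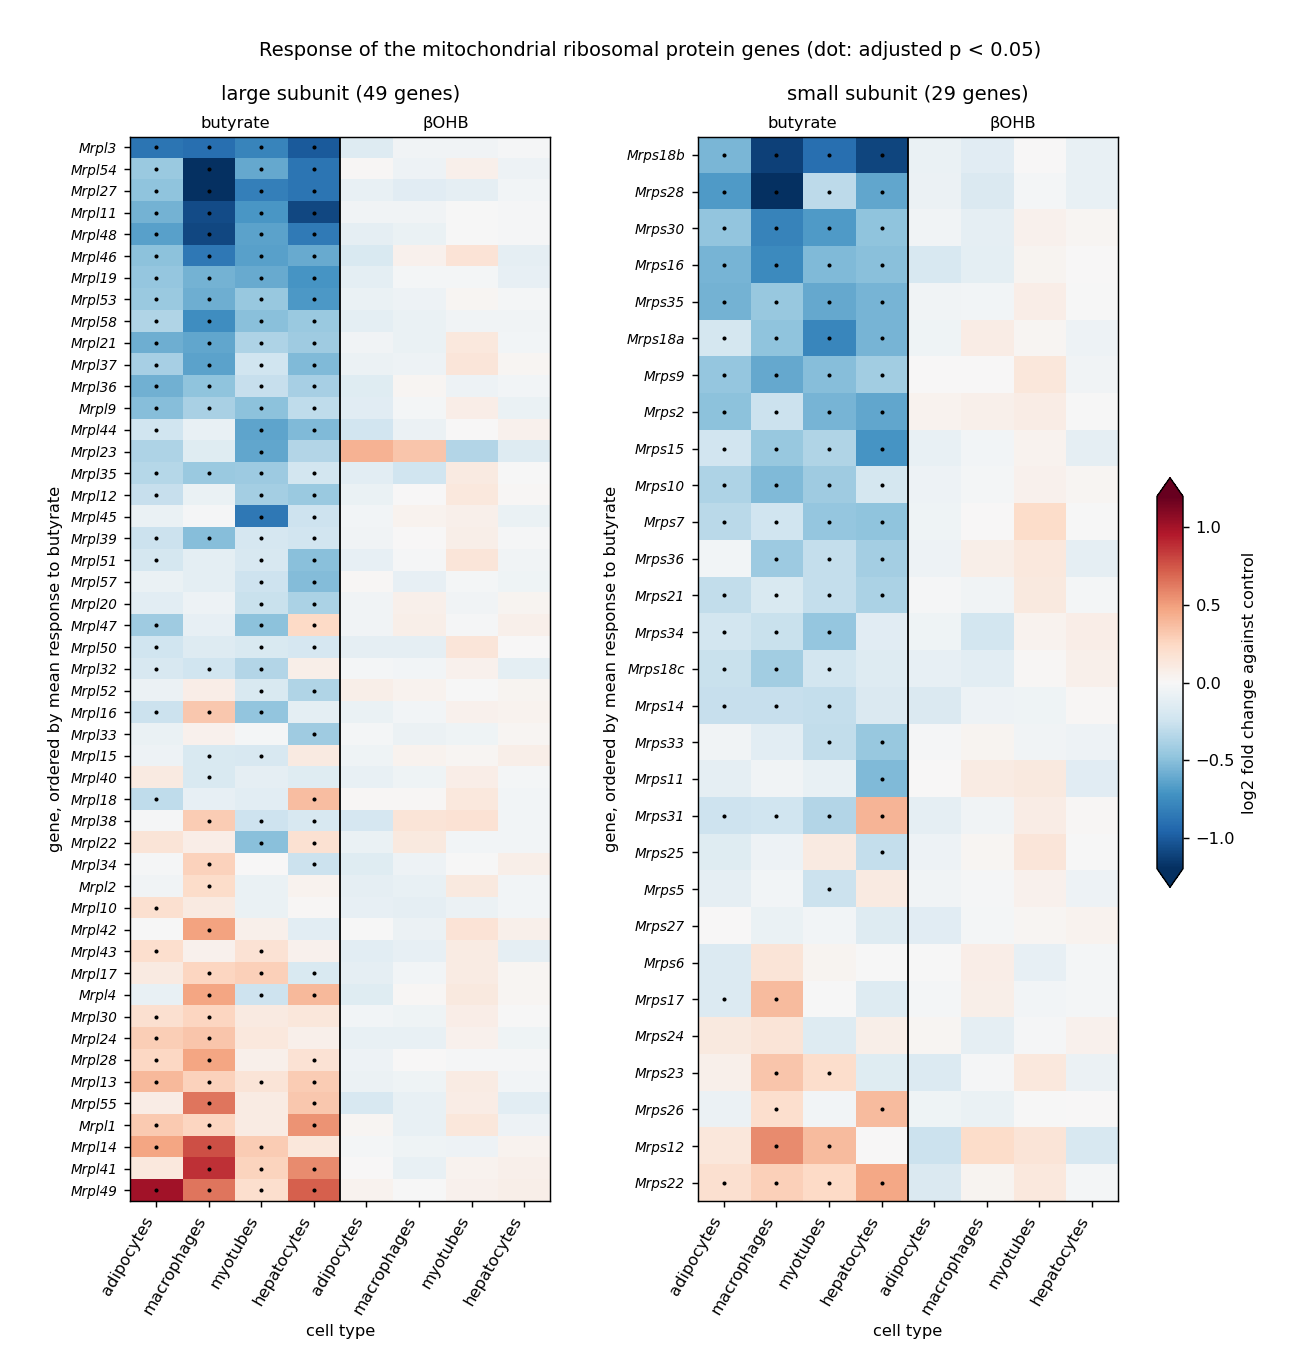
Log2 fold change of each member relative to control libraries of its cell type, with butyrate in the left columns and βOHB in the right columns of each panel, with genes ordered by their mean butyrate response. Dots mark an adjusted p below 0.05 in edgeR, and colours beyond 1.2 in size are cut off. With TMM scaling blue prevails under butyrate in both subunits, and no dot falls in the βOHB columns.

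Markers of cell types moved alongside. In myotubes, the summed macrophage markers were 253, 199 and 100 CPM in control libraries and 14.4, 63.7 and 24.3 CPM under butyrate, markers of proliferating cells went from 73.4, 52.5 and 33.8 to 15.9, 20.4 and 21.1 CPM, and myotube markers fell from between 14200 and 18730 to between 9223 and 13720 CPM. Without the butyrate library that held 517 CPM of hepatocyte markers, 7 members were raised and 48 lowered in myotubes, with a median of -0.27 against -0.26 with it. Butyrate replicate 3 of the myotubes stood apart from the other two, with a mean chi-square per gene of 37.5 and 42.4 to them against 8.76 between them, and it held 9223 CPM of myotube markers against 13540 and 13720. Without it 10 members were raised and 44 lowered, with a median of -0.25. In macrophages, markers of proliferating cells summed to between 1394 and 1428 CPM in controls and to between 557.6 and 656 CPM under butyrate, fibroblast markers went from between 1507 and 1650 to between 966 and 1435 CPM, myotube markers went from at most 4.43 CPM to 5.30, 8.10 and 31.5 CPM, and macrophage markers fell from between 16340 and 16500 to between 9919 and 10430 CPM. In adipocytes, adipocyte markers went from between 8344 and 9042 to between 6528 and 7873 CPM and endothelial markers from between 167 and 192 to between 109 and 128 CPM. In hepatocytes, hepatocyte markers went from between 33630 and 35370 to between 38520 and 40710 CPM, macrophage markers from between 294 and 340.0 to between 135 and 154 CPM, endothelial markers from between 61.0 and 68.4 to between 19.2 and 22.5 CPM, and adipocyte markers from between 17.2 and 19.9 to between 58.0 and 60.1 CPM. The sum of macrophage markers in hepatocytes was almost all Cd14 and Cd68. Its fall came from Cd14, while the mean of Cd68 was slightly higher under butyrate than in controls. Adgre1, Csf1r, Lyz2 and Clec4a1 were very low there, so the fall describes Cd14 and not macrophage markers as a set. Other sums also lay apart from the controls without overlap under butyrate. Among them were endothelial and adipocyte markers in myotubes and proliferating, fibroblast and myotube markers in hepatocytes. The same held for macrophage markers in adipocytes and adipocyte markers in macrophages. The part of all these shifts in the response of the family was not tested.

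The size of the response depended on how libraries were scaled, most of all in macrophages. Scaling by library totals alone, without TMM, put the median log2 fold change of all tested genes at 0.07 in adipocytes, 0.20 in macrophages, 0.13 in myotubes and 0.01 in hepatocytes, where TMM had put each within 0.01 of 0. With it, 18 members were raised and 29 lowered in adipocytes, 31 and 23 in macrophages, 16 and 33 in myotubes, and 18 and 38 in hepatocytes. In macrophages the balance thus turned, and the median of the members went from -0.12 to 0.10, while it stayed below the all-gene median of 0.20. The split by subunit there was 0.14 for the large and -0.02 for the small subunit. Upper quartile scaling gave 25 raised and 27 lowered members in macrophages with a median of -0.01, and RLE scaling gave 23 and 34 with a median of -0.10.

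The members that were raised stayed so under each scaling. All 10, 21, 9 and 13 members raised in adipocytes, macrophages, myotubes and hepatocytes with TMM were also raised with RLE, upper quartile and library totals. Of the lowered members, 29 of 40, 23 of 35, 33 of 50 and 38 of 43 were lowered under all 4 scalings. No member changed from raised to lowered or the reverse. The share of all counts taken by the family, which uses no scaling factor, was 0.181% ± 0.0026 in macrophage controls and 0.203% ± 0.0092 under butyrate (SD, n = 3), with all 3 butyrate libraries above all 3 controls. In the other cell types it was lower under butyrate, at 0.291% against 0.299% in adipocytes, 0.245% against 0.258% in myotubes and 0.268% against 0.294% in hepatocytes, and the groups overlapped in adipocytes but not in myotubes or hepatocytes. Under βOHB the share in adipocytes was 0.278%, 0.286% and 0.272%, below all 3 controls at 0.303%, 0.295% and 0.299%. With TMM scaling the groups overlapped there, with sums of 2762, 2904 and 2767 CPM against 3016, 2900 and 2927 CPM. In macrophages, myotubes and hepatocytes the βOHB share overlapped the controls. Endothelial markers were 201, 193 and 229 CPM in the adipocyte βOHB libraries against 167, 192 and 187 CPM in their controls, and βOHB replicate 3 held 9263 CPM of fibroblast and 151 CPM of proliferating markers. Their part in the share was not tested.

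**Figure D3:**
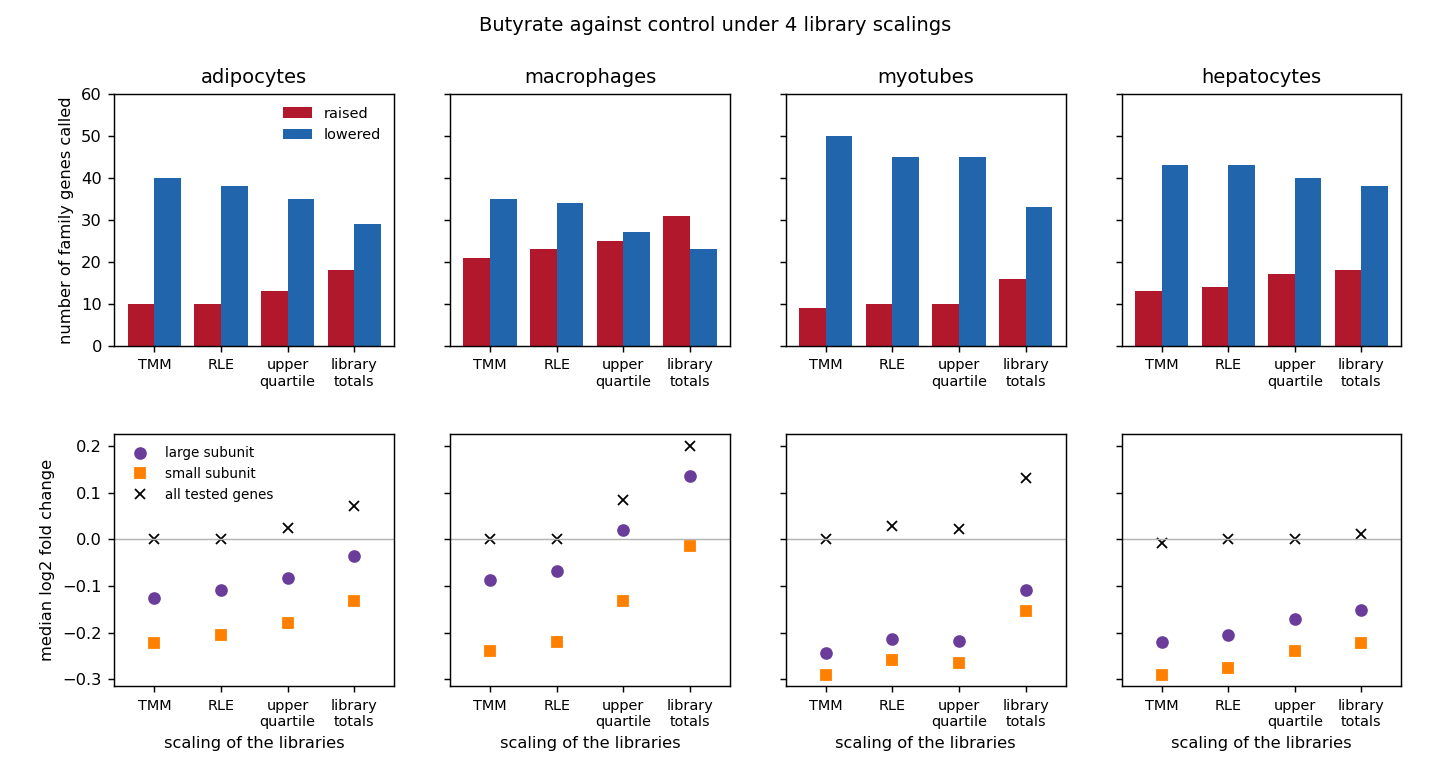
Butyrate against control under 4 scalings of the libraries. The upper row counts members called raised (red) or lowered (blue) at an adjusted p below 0.05, and the lower row gives the median log2 fold change of the large subunit, the small subunit and all 15340 tested genes. In macrophages raised members outnumber lowered members with library totals only, and all 3 medians shift together.

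The ratio of large-subunit to small-subunit counts within a library does not depend on scaling. In adipocytes it was 1.79, 1.86 and 1.80 in controls and 1.98, 2.01 and 1.97 under butyrate. In macrophages it was 1.86, 1.93 and 1.90 in controls and 2.13, 2.13 and 2.15 under butyrate. In hepatocytes it was 1.96, 1.94 and 1.94 in controls and 2.10, 2.13 and 2.16 under butyrate. The groups did not overlap in these 3 cell types. In myotubes the ratio was 1.97, 2.03 and 1.99 in controls and 2.08, 2.11 and 2.07 under butyrate, again without overlap. Under βOHB the ratio overlapped the controls in adipocytes, macrophages and myotubes, and it was 1.96, 1.97 and 1.99 in hepatocytes, where it overlapped as well.

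Symbols do not always give the subunit. Mrps18a and Mrps30 are proteins of the large subunit by their known place, and Mrps36 belongs to the 2-oxoglutarate dehydrogenase complex. Mrps30 stood at 54.5, 52.8 and 57.5 CPM in hepatocyte controls and at 41.0, 38.8 and 38.5 CPM under butyrate, and its log2 fold changes were -0.47, -0.80, -0.68 and -0.48 in adipocytes, macrophages, myotubes and hepatocytes. Mrps18a was lowered in all 4 cell types as well, with values from -0.21 in adipocytes, where the call was lost without control replicate 1 or 3 or butyrate replicate 1 (adjusted p 0.0688, 0.0822 and 0.0710), to -0.79 in myotubes. Mrps36 was lowered in macrophages, myotubes and hepatocytes and stood at -0.03 (adjusted p = 0.769) in adipocytes. With these genes placed by what is known, the ratio was 2.33 ± 0.037 in myotube controls and 2.36 ± 0.030 under butyrate, so the difference in myotubes was within 1 SD of the libraries. It stayed apart in adipocytes (2.19 ± 0.037 against 2.38 ± 0.026), macrophages (2.28 ± 0.037 against 2.45 ± 0.0040) and hepatocytes (2.39 ± 0.0040 against 2.53 ± 0.032).

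**Figure D4:**
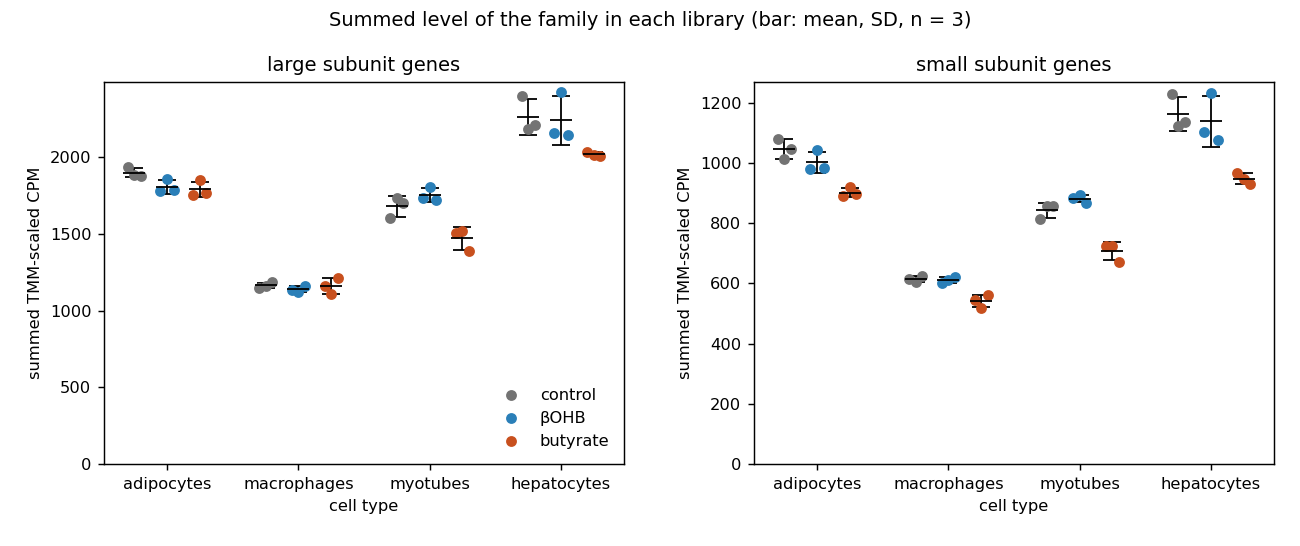
Summed TMM-scaled CPM of the large-subunit genes (left) and the small-subunit genes (right) in each of the 36 libraries. Points are libraries, grey for control, blue for βOHB and orange for butyrate, and bars give the mean and SD of 3. For the small subunit all butyrate libraries lie below all controls in each cell type, whereas for the large subunit in macrophages the groups overlap.

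Members with a bacterial counterpart and members particular to mitochondria were counted apart with TMM scaling only, beside 30.3%, 33.2%, 33.4% and 32.4% of all tested genes lowered and 30.7%, 31.9%, 33.1% and 31.0% raised. Of the 46 with a counterpart, 24, 20, 28 and 22 were lowered in adipocytes, macrophages, myotubes and hepatocytes and 7, 14, 4 and 8 raised. Of the 32 particular to mitochondria, 16, 15, 22 and 21 were lowered and 3, 7, 5 and 5 raised. These 32 include Mrps36, which by its known place is not part of the ribosome. They also include Mrps18a and Mrps18b, although their relative Mrps18c was counted with the 46. The widest gap was in hepatocytes, where the 30 large-subunit members with a counterpart had -0.05 as their median log2 fold change and the 19 without had -0.37. The difference between the classes was not tested.

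Across the 4 cell types, 27 members were lowered everywhere and 3 were raised everywhere, beside 12.7% and 12.5% of all tested genes. The lowered genes made up 34.6% of the members and the raised 3.85%. A further 21 members were lowered in 1 to 3 cell types and raised in none (26.9% against 25.9% of all genes), 14 were raised in 1 to 3 and lowered in none (17.9% against 22.8%), 10 were raised in some and lowered in others (12.8% against 19.3%), and 3 were called in none (3.85% against 6.86%). The last were Mrps6, Mrps24 and Mrps27. With library totals alone, 15 members were lowered everywhere and 10 raised everywhere. Without the filter on low counts, 24 were lowered everywhere and none was raised everywhere.

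Among the members lowered in all 4 cell types, Mrpl3 had the smallest p in the cell type where its p was largest. It is the counterpart of a bacterial protein next to the peptidyl transferase centre. It stood at 57.6, 53.9 and 51.4 CPM in adipocyte controls and at 29.8, 31.1 and 27.9 CPM under butyrate, at 27.6, 28.7 and 29.9 against 15.1, 15.9 and 14.9 CPM in macrophages, at 41.2, 42.7 and 39.9 against 25.2, 24.6 and 21.8 CPM in myotubes, and at 36.1, 31.1 and 35.0 against 17.8, 15.5 and 17.5 CPM in hepatocytes. Every butyrate library was thus far below every control. The log2 fold changes were -0.87 ± 0.066, -0.91 ± 0.071, -0.79 ± 0.068 and -1.01 ± 0.073 (SE, largest adjusted p = 1.89e-11). A difference of this response between cell types was not called (adjusted p = 0.223).

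Mrps18b fell by 0.55 in adipocytes, 1.12 in macrophages, 0.90 in myotubes and 1.11 in hepatocytes on the log2 scale. Its hepatocyte level went from 132, 118 and 119 CPM to 58.4, 58.7 and 53.9 CPM. Here the response differed between cell types (adjusted p = 9.2e-06), with the smallest change in adipocytes.

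Mrpl11, whose bacterial counterpart sits at the base of the stalk that binds translation factors, and Mrpl27, whose counterpart reaches towards the peptidyl transferase centre, were lowered in all 4 cell types as well, least in adipocytes. Mrpl11 had log2 fold changes of -0.56, -1.07, -0.70 and -1.09 in adipocytes, macrophages, myotubes and hepatocytes. Mrpl27 had -0.48, -1.28, -0.82 and -0.87, and in macrophages it went from 22.6, 22.4 and 22.4 CPM to 8.55, 9.31 and 9.97 CPM. Mrpl48, a large-subunit protein, had -0.65, -1.09, -0.64 and -0.85. For each of the 3 the groups were separate in all cell types, and each differed between cell types, with an adjusted p of 0.000165, 8.04e-07 and 0.00367. Exons of Mrpl27 overlap Eme1, and those of Mrpl48 overlap Rab6a, on the opposite strand. Rab6a had log2 fold changes of -0.01, 0.12, 0.14 and 0.01, and Eme1 had -0.82, -0.52, -1.21 and -1.29.

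Only Mrpl49, Mrps22 and Mrpl13 were raised in all 4 cell types with TMM scaling. Mrpl49, a large-subunit protein particular to mitochondria, had the largest increase. It stood at 26.8, 28.8 and 26.2 CPM in adipocyte controls and at 52.3, 59.3 and 52.3 CPM under butyrate, at 23.5, 24.9 and 23.1 against 36.6, 37.5 and 37.7 CPM in macrophages, at 37.2, 39.3 and 40.6 against 46.3, 46.5 and 42.1 CPM in myotubes, and at 19.6, 19.1 and 20.3 against 34.8, 29.6 and 32.4 CPM in hepatocytes. The groups were separate in each cell type. Its log2 fold changes were 1.00 ± 0.062, 0.65 ± 0.063, 0.20 ± 0.061 and 0.71 ± 0.067 (SE, largest adjusted p = 0.00417), and the response differed between cell types (adjusted p = 4.15e-08). Syvn1 overlaps its exons on the opposite strand and had 0.06, 0.11, -0.34 and -0.24.

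Mrps22, a small-subunit protein particular to mitochondria, rose most in hepatocytes, from 49.4, 45.3 and 48.7 CPM to 69.3, 62.7 and 65.3 CPM. Its log2 fold changes were 0.19 ± 0.063, 0.28 ± 0.070, 0.24 ± 0.062 and 0.46 ± 0.062 in adipocytes, macrophages, myotubes and hepatocytes. The call in adipocytes was lost without control replicate 2 or 3 (adjusted p 0.0625 and 0.0507). Mrpl13, the counterpart of a bacterial large-subunit protein, had 0.39 ± 0.064, 0.28 ± 0.065, 0.15 ± 0.064 and 0.30 ± 0.065. Its call in myotubes was the weakest of these, with an adjusted p of 0.0368 that became 0.0789 and 0.115 without butyrate replicate 1 or 2 and 0.104 and 0.0791 without control replicate 1 or 2. Mtbp, which overlaps Mrpl13 on the opposite strand, had -0.30, -0.83, -0.23 and -0.15.

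**Figure D5:**
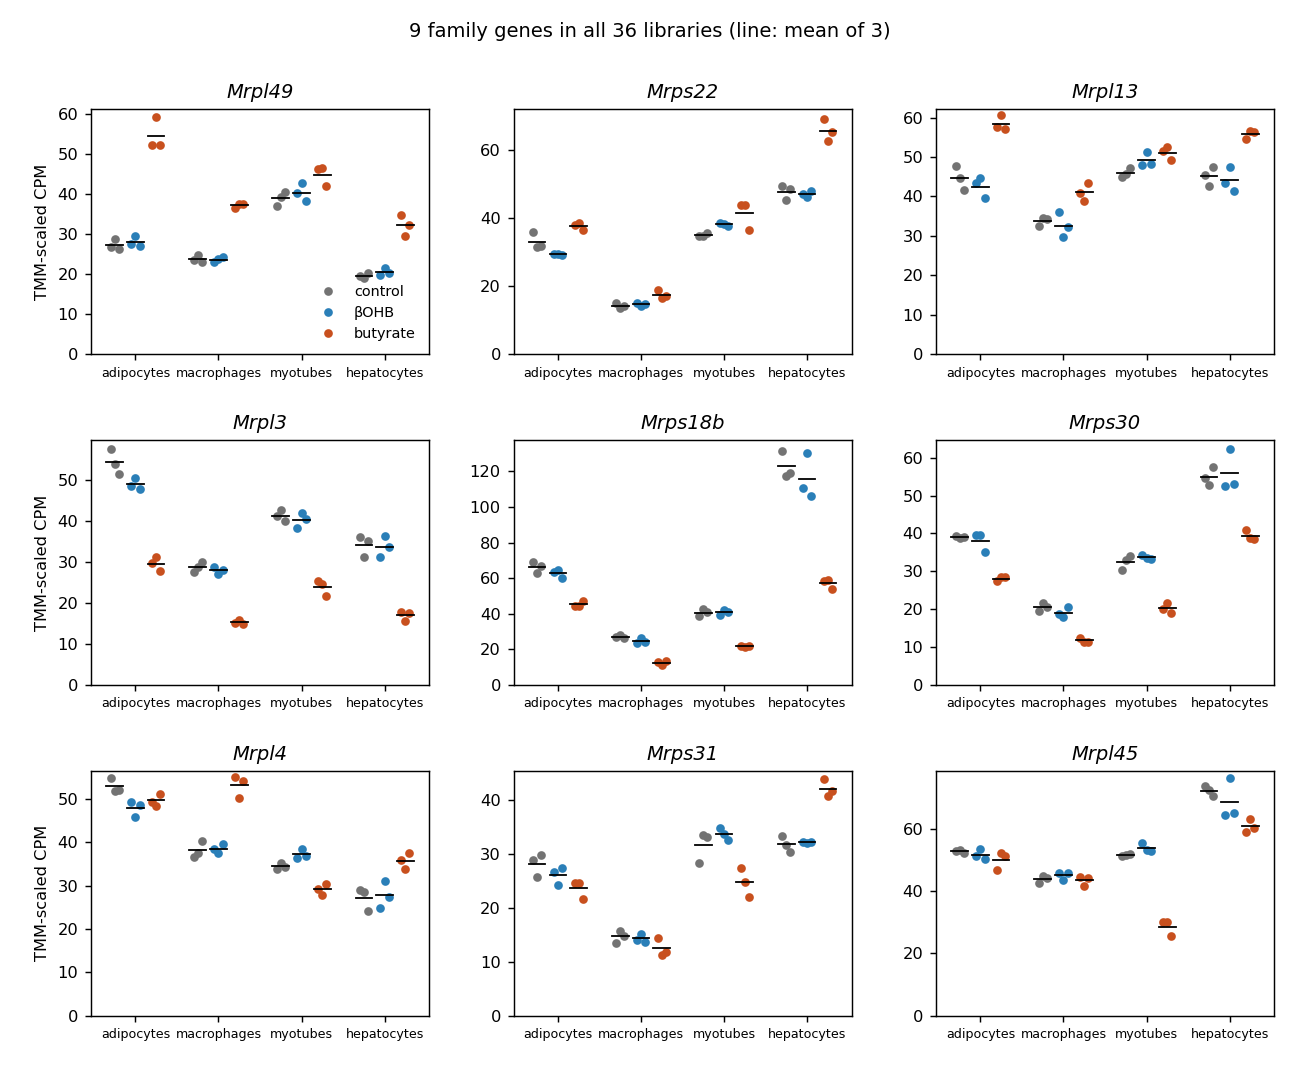
TMM-scaled CPM of 9 members in all 36 libraries, with 3 raised in each cell type by butyrate (upper row), 3 lowered in each (middle row) and 3 whose response depends on the cell type (lower row). Points are libraries, grey for control, blue for βOHB and orange for butyrate, and lines are means of 3. Mrpl45 falls by 0.86 on the log2 scale in myotubes, while its groups overlap in adipocytes and macrophages.

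Promoters are shown for members called alike in all 4 cell types, limited to those that the naming rule picks (6 lowered and 3 raised, by the smallest p in their weakest cell type) and that have 1 entry in the RefSeq table for GRCm38.p6. The 100 bases before the RefSeq start of transcription are given 5′ to 3′, with capitals for a match to CCGGAAG, the core bound by ETS factors such as GABP. The first 5 genes were lowered and the last 2 raised. The match of Mrps18b lies after the start, outside the stretch shown.
Mrpl3 (chr9:105053168-105053267, plus strand): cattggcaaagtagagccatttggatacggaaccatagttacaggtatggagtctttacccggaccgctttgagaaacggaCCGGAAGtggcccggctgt
Mrps18b (chr17:35916441-35916540, minus strand): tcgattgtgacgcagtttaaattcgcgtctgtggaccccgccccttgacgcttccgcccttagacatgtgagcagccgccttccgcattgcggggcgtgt
Mrps30 (chr13:118387253-118387352, minus strand): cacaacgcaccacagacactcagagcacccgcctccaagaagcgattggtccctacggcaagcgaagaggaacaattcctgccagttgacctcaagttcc
Mrpl27 (chr11:94653691-94653790, plus strand): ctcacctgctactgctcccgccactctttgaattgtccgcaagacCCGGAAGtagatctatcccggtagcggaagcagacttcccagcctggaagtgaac
Mrpl11 (chr19:4962206-4962305, plus strand): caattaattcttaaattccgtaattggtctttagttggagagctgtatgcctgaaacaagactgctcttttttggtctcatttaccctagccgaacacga
Mrpl49 (chr19:6057756-6057855, minus strand): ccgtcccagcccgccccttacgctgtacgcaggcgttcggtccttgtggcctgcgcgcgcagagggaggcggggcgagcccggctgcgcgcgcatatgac
Mrps22 (chr9:98601680-98601779, minus strand): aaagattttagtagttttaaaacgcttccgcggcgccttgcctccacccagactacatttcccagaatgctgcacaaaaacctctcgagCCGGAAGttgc

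The same 7 letters stood 19 bases before the RefSeq start in the lowered Mrpl3 and 11 bases before it in the raised Mrps22. Gene starts in GENCODE M21 differ for some of these genes. There Mrpl3 begins at 105053239 and Mrpl11 at 4962147. The Mrpl3 match, the whole Mrpl11 stretch and part of the Mrpl27 and Mrpl49 stretches thus lie inside the gene by that annotation. RefSeq promoters, from 250 bases before to 50 after the start, were at hand for 69 of the 78 members. Searched on both strands, CCGGAAG was in 37.7% of these and in 9.93% of all 27025 genes with a promoter. The NRF1 motif, GCGCA and GCGC with any 1 base between them, was in 18.8% of members and 5.19% of all genes, and AAGATGGC, the YY1 motif, was in 17.4% and 3.19%. The ETS motif ends with the letters AAG that begin the YY1 motif, so 1 stretch can match both, and a match is a description of the sequence only. The ETS motif was present in 16 of 42 members lowered in 1 or more cell types and raised in none (38.1%) and in 5 of 16 members raised in 1 or more and lowered in none (31.2%).

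Of the 78 members, 51 differed in their butyrate response between cell types, beside 74.5% of all tested genes. Mrpl45, which helps anchor the ribosome to the inner membrane, had the smallest p. It stood at 51.2, 51.7 and 52.0 CPM in myotube controls and at 29.9, 30.0 and 25.4 CPM under butyrate, while the groups overlapped in adipocytes (53.0, 53.2 and 52.3 against 46.8, 52.3 and 51.1 CPM) and in macrophages (42.5, 45.0 and 44.1 against 44.4, 41.8 and 44.1 CPM). The log2 fold change was -0.86 in myotubes, -0.25 in hepatocytes, -0.08 in adipocytes and -0.01 in macrophages (adjusted p of the difference = 1.23e-09).

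Mrpl54 was lowered in all 4 cell types but most in macrophages, where it went from 20.0, 21.3 and 21.1 CPM to 6.04, 6.93 and 8.66 CPM, a log2 fold change of -1.53 ± 0.104 that was the largest of all members. In adipocytes it was -0.45. Mrpl41 and Mrpl14 moved upward in macrophages, from 19.8, 18.4 and 17.9 to 34.0, 31.7 and 37.2 CPM and from 14.7, 15.6 and 14.4 to 26.4, 23.1 and 26.7 CPM. Mrpl41 had 0.87 in macrophages and 0.12 (adjusted p = 0.146) in adipocytes, and Mrpl14 had 0.77 in macrophages and 0.14 (adjusted p = 0.108) in hepatocytes. Tmem63b, on the opposite strand of Mrpl14 with shared exon sequence, was raised in adipocytes, macrophages and myotubes (0.37, 0.59 and 0.18) and lowered in hepatocytes (-0.27). Mrps12, the counterpart of a bacterial protein at the decoding site, was raised in macrophages (0.57) and myotubes (0.38), whereas in hepatocytes it stood at 0.00 (adjusted p = 1.0).

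Among the 10 members called in both directions, Mrpl16, Mrps31, Mrpl47, Mrpl4, Mrpl22 and Mrpl18 spanned the widest ranges. Mrpl4, whose bacterial counterpart lines the exit tunnel, went from 36.5, 37.6 and 40.3 to 55.0, 50.3 and 54.1 CPM in macrophages and from 33.8, 35.3 and 34.2 to 29.3, 27.7 and 30.3 CPM in myotubes, with log2 fold changes of 0.48 and -0.24. Mrps31 was raised in hepatocytes (0.40), from 33.3, 31.7 and 30.4 to 43.8, 40.7 and 41.6 CPM, and lowered in myotubes (-0.35), adipocytes (-0.25) and macrophages (-0.24). Its call in macrophages did not hold without butyrate replicate 2 or 3 or control replicate 2 or 3 (adjusted p from 0.0567 to 0.190), and its call in adipocytes did not hold without butyrate replicate 3 or control replicate 3 (0.0792 and 0.0619). Its rise in hepatocytes and its fall in myotubes held in each of these fits.

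Mrpl16 was raised in macrophages (0.32) and lowered in myotubes (-0.48) and adipocytes (-0.26, adjusted p 0.0550 without butyrate replicate 1). Mrpl47 was lowered in adipocytes (-0.43) and myotubes (-0.50) and raised in hepatocytes (0.24, adjusted p 0.0772 without control replicate 3). On its opposite strand, Actl6a had -0.81, -0.75, -0.60 and -1.05 and Ndufb5 had -0.19, -0.19, -0.19 and -0.08 in adipocytes, macrophages, myotubes and hepatocytes, and both had higher control levels than Mrpl47 in each. Mrpl22, which also has a counterpart at the exit tunnel, was lowered in myotubes (-0.50) and only slightly raised in hepatocytes (0.18), where the adjusted p of 0.0356 became 0.168, 0.0597 and 0.117 without butyrate replicate 2, control replicate 1 or control replicate 2. Mrpl18 was lowered in adipocytes (-0.31) and raised in hepatocytes (0.37), and Tcp1 on its opposite strand was lowered in both (-0.43 and -0.38). Mrpl17 was raised in myotubes (0.29) and macrophages (0.25) and lowered in hepatocytes (-0.18), a call lost without butyrate replicate 1, control replicate 1 or control replicate 2 (adjusted p 0.0563, 0.0896 and 0.0521).

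No member was called under βOHB in any of the 4 cell types by edgeR, limma-voom or DESeq2. The share of all tested genes called by edgeR was 0.00652% in adipocytes, 0.0% in macrophages, 2.91% in myotubes and 0.00652% in hepatocytes. At an unadjusted p below 0.05, 9 members passed in adipocytes, 3 in macrophages, 4 in myotubes and 1 in hepatocytes, beside 7.15%, 2.33%, 13.7% and 5.51% of all genes. Medians of the members were -0.07, -0.04, 0.05 and -0.02 in adipocytes, macrophages, myotubes and hepatocytes, where the medians of all tested genes were 0.00, 0.00, 0.02 and 0.00. The myotube median was -0.0102 with library totals alone and 0.0143 without the filter on low counts, and leaving out 1 library gave values from -0.0908 to -0.0475 in adipocytes, from -0.0667 (without βOHB replicate 3) to -0.0112 (without βOHB replicate 2) in macrophages, from 0.021 to 0.0722 in myotubes and from -0.0731 to 0.026 in hepatocytes.

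The members of smallest p are given with the interval of their change. Mrpl44, a large-subunit protein, stood at 28.2, 28.5 and 27.2 CPM in adipocyte controls and at 24.7, 23.9 and 23.2 CPM under βOHB. The groups did not overlap, and the log2 fold change was -0.23 (95% interval -0.36 to -0.09, adjusted p = 0.496). Mrps12 in adipocytes had -0.26 (-0.43 to -0.08, adjusted p = 0.551), with 26.6, 24.4 and 26.9 CPM in controls and 22.3, 22.5 and 20.4 CPM under βOHB. In macrophages Mrpl35 had -0.23 (-0.37 to -0.09, adjusted p = 1.0), with 19.1, 19.8 and 18.9 CPM against 15.5, 16.5 and 17.2 CPM, and Mrps12 had 0.22 (0.03 to 0.41, adjusted p = 1.0), opposite in sign to adipocytes.

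In myotubes Mrps7, whose bacterial counterpart starts assembly of the head of the small subunit, came closest to the threshold. It stood at 44.6, 47.8 and 46.8 CPM in controls and at 52.3, 54.8 and 54.8 CPM under βOHB. The groups were separate, and the log2 fold change was 0.22 (0.08 to 0.35, adjusted p = 0.081). Butyrate moved the same gene the other way in these cells, to 34.7, 34.9 and 31.4 CPM (-0.46). Mrpl42 in myotubes had 0.17 (0.02 to 0.31, adjusted p = 0.268). In hepatocytes Mrps12 had -0.19 (-0.37 to -0.01, adjusted p = 0.88) and Mrps11 had -0.13 (-0.28 to 0.01, adjusted p = 0.944), and in both cases the groups overlapped. The macrophage markers in myotubes were also lower under βOHB, at 54.4, 40.1 and 97.4 CPM, as were markers of proliferating cells, at 25.6, 20.5 and 25.6 CPM, and their part in these values was not tested.

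Butyrate and βOHB were compared directly at the same dose and time. Members were higher under butyrate than under βOHB for 17 genes and lower for 28 in adipocytes, 22 and 30 in macrophages, 5 and 51 in myotubes, and 14 and 46 in hepatocytes, beside 59.5%, 64.7%, 66.0% and 63.5% of all tested genes called in either direction. The median log2 difference was -0.14, -0.12, -0.30 and -0.22. It was -0.0598 in macrophages without butyrate replicate 2, and in adipocytes it was -0.0938 without butyrate replicate 3 and -0.0151 with library totals alone. In myotubes the count of 5 fell to 3 without βOHB replicate 1 or 3 and to 2 without butyrate replicate 1. With library totals alone it rose to 17, and in macrophages the median difference turned to 0.11.

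Among genes that act with the mitochondrial ribosome, lowered genes outnumbered raised genes in each of 5 lists and each cell type with TMM scaling, and the lists were not counted under the other scalings. Of all tested genes, 30.3%, 33.2%, 33.4% and 32.4% were lowered and 30.7%, 31.9%, 33.1% and 31.0% raised in adipocytes, macrophages, myotubes and hepatocytes. Of 5 subunits named otherwise, butyrate lowered 2, 2, 3 and 3 in adipocytes, macrophages, myotubes and hepatocytes and raised 1, 1, 2 and 2. Dap3, a GTP-binding protein of the small subunit, was raised in each, from 37.2 ± 0.83 to 70.6 ± 3.2 CPM in macrophages and from 63.0 ± 2.1 to 104 ± 4.0 CPM in hepatocytes (SD, n = 3), with log2 fold changes from 0.44 in adipocytes to 0.92 in macrophages. Gadd45gip1, of the large subunit, was lowered in each, by -0.64 in hepatocytes and -0.29 in macrophages.

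Of 11 translation factors, butyrate lowered 5, 4, 4 and 4 and raised 2 in each cell type. The release factor Mtrf1 fell most in adipocytes, myotubes and hepatocytes, from 6.21 ± 0.68 to 1.87 ± 0.25 CPM in myotubes (-1.72) and from 7.30 ± 0.60 to 2.73 ± 0.24 CPM in hepatocytes (-1.41). In macrophages Mtrf1 went from 6.29 to 4.63 CPM, and Mrrf fell more in proportion. The recycling factor Mrrf had -0.60, -0.61, -0.51 and -0.79 in adipocytes, macrophages, myotubes and hepatocytes. Of 21 assembly factors and RNA-modifying enzymes, 12, 12, 10 and 14 were lowered and 2, 5, 2 and 4 raised. Fastkd2, which binds the large ribosomal RNA, went from 18.9 ± 1.2 to 6.48 ± 0.42 CPM in macrophages (-1.54), while the small-subunit assembly factor Rbfa went up there from 20.5 ± 0.20 to 44.1 ± 1.5 CPM (1.10).

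Of 17 mitochondrial aminoacyl-tRNA synthetases, 9, 7, 12 and 10 were lowered and 3, 3, 2 and 4 raised. Sars2, for serine, fell from 9.45 ± 0.98 to 2.18 ± 0.30 CPM in macrophages (-2.11), and Yars2, for tyrosine, fell from 33.7 ± 3.9 to 13.8 ± 1.8 CPM in hepatocytes (-1.28). The last list holds 12 genes, of which 9 are regulators of nuclear genes and 3 (Tfam, Tfb2m and Polrmt) transcribe or maintain the mitochondrial genome. Of these 12, 7, 6, 8 and 6 were lowered and 1, 2, 3 and 5 raised. The coactivators Pprc1 and Ppargc1a went opposite ways. Pprc1 fell from 73.9 ± 1.7 to 20.7 ± 0.59 CPM in hepatocytes (-1.84) and by 1.34 to 1.56 in the other cell types, and Ppargc1a rose from 4.62 ± 0.048 to 34.7 ± 2.6 CPM in hepatocytes (2.91) and by 0.72 to 2.92 in the others. Among the DNA-binding regulators, Gabpa, Gabpb1 and Yy1 were lowered in each cell type, whereas Nrf1 was lowered in adipocytes, myotubes and hepatocytes and stood at 0.04 (adjusted p = 0.64) in macrophages.

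Cytosolic ribosomal proteins and nuclear respiratory chain subunits give the nearest comparison, with TMM scaling only. Butyrate lowered 34, 25, 36 and 57 of 81 tested cytosolic ribosomal protein genes in adipocytes, macrophages, myotubes and hepatocytes and raised none, with medians of -0.16, -0.13, -0.15 and -0.23. A response that differed between cell types was called for 6 of these 81 genes (7.41%) against 65.4% of the mitochondrial ribosomal members. Among 82 respiratory chain genes, 30, 29, 50 and 18 were lowered and 2, 15, 2 and 9 raised, with medians of -0.15, -0.07, -0.20 and -0.06. The median size of change irrespective of direction was 0.24, 0.29, 0.28 and 0.37 for the mitochondrial ribosomal members, 0.16, 0.13, 0.16 and 0.23 for the cytosolic, and 0.42, 0.49, 0.45 and 0.54 for all tested genes, so the median member moved less than the median gene. The differences between families were not tested.

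Reads could be shared with other genes for 30 members. For 21, exons overlap those of a tested gene, mostly on the opposite strand, and the sources used here do not state that strand was used in counting. For 12, a copy elsewhere in the genome was at least 95% identical over 150 bases or more and over 40% of the transcript. Of the 48 members with neither, butyrate lowered 25, 22, 33 and 28 and raised 4, 14, 4 and 7 in adipocytes, macrophages, myotubes and hepatocytes with TMM scaling, beside 30.3%, 33.2%, 33.4% and 32.4% of all tested genes lowered and 30.7%, 31.9%, 33.1% and 31.0% raised. The subset was not counted under the other scalings. Mrpl23 is uncertain as a whole, because 89.6% of the reads assigned to it and its copies went to the pseudogene Mrpl23-ps1. It stood at 2.08, 1.72 and 2.87 CPM in adipocyte controls, while Mrpl23-ps1 was at a mean of 24.7 CPM (by library totals) there.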

How the data were processed

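RNA of 36 libraries was sequenced on the BGISEQ-500 platform. The authors estimated transcript counts with Salmon 1.2.1 against GENCODE M25 and, per their methods, used tximport to sum them per gene, adjusting for mean transcript length and library size. Estimated counts were deposited per gene and library, of which 55.6% of those above 0 are exactly whole numbers, so the values alone do not settle whether the deposited table is the adjusted one. Symbols and positions were taken from GENCODE M21 (GRCm38) for 54094 of 54347 genes.

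Estimated counts were rounded, genes over 1 CPM in at least 6 libraries were kept, and edgeR 4.0.16 (R 4.3.3) quasi-likelihood tests with TMM scaling were fitted to all libraries in 1 model, with Benjamini-Hochberg adjustment over all genes tested. The study itself used limma-voom, which was run as an alternative (limma 3.58.1), as were DESeq2 1.42.0, RLE, upper quartile and library-total scaling, other filters, single cell types, a replicate block, an unadjusted P below 0.001, and fits without each library in turn. The models were tested on simulated data. Totals of 18366289 to 23221473 limit the precision of low genes.

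Groups came from the labels. Members and gene lists were chosen with earlier results of these data known. Genes were named by rule: per cell type the 3 raised and 3 lowered members of smallest P with separate groups, up to 6 members per direction called alike in all 4 cell types, up to 6 called in both directions with the widest spread, the 2 of smallest P per cell type under βOHB, the 3 highest and 3 lowest per length, Mrps18a, Mrps30 and Mrps36, and the 2 of smallest P in each list of mitochondrial translation genes. Other genes named beside these were chosen after their values were seen. Members sharing reads were sought by exon overlap and with blastn 2.17.0. The comparison of lengths and the count without such members were added after seeing the data. Correlations of the deviations of libraries with the same replicate number ran from -0.264 to 0.273 over 36 pairs. The samples were treated as unpaired in the main fit, but with 3 libraries per group these values cannot exclude shared cultures or animals. A further 5 rows with an Mrpl or Mrps symbol are pseudogenes and were left out of the family.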

Additional observations from a re-analysis of the deposited data

Results flagged for a closer look

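The butyrate response differed between the 4 cell types for 51 of the 78 members, by edgeR's test of the difference between cell types over all genes tested. Among the members named here, the adjusted p of that difference was smallest for Mrpl45 (1.228e-09), Mrpl49 (4.15e-08) and Mrpl4 (4.17e-08). It was 3.819e-07 for Mrpl54, 8.045e-07 for Mrpl27, 1.016e-06 for Mrpl41, 3.635e-06 for Mrpl22, 4.249e-06 for Mrps31, 4.543e-06 for Mrpl47, 8.303e-06 for Mrpl16 and 9.197e-06 for Mrps18b. It was 1.275e-05 for Mrpl44, 4.878e-05 for Mrpl42, 6.356e-05 for Mrpl14, 0.0001102 for Mrpl18, 0.0001553 for Mrpl17, 0.0001646 for Mrpl11, 0.000307 for Mrps11, 0.0006992 for Mrps18a and 0.0007665 for Mrps12. It was 0.002187 for Mrps26, 0.002953 for Mrpl52, 0.003665 for Mrpl48, 0.006811 for Mrps36, 0.007034 for Mrps30 and 0.03474 for Mrps22. Among all tested genes 74.5% passed the same test.

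Pseudogenes that carry the name of a member lie outside the comparisons and held counts. Summed over the 36 libraries, Mrpl23-ps1 had 18020.3 estimated counts, Mrpl48-ps had 403.0 and Mrps36-ps2 had 9.4. With TMM scaling, Mrpl23-ps1 was lowered by butyrate in macrophages, myotubes and hepatocytes, with log2 fold changes of -0.51, -0.28 and -0.37, and in adipocytes it stood at -0.20 with an adjusted p of 0.0499, just inside the threshold. Other settings were not tried for it.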

How the results depend on the processing

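Limma-voom and DESeq2, RLE scaling, the other filters that keep a count minimum and fits to single cell types kept the counts and medians of the treatment comparisons within the bounds set (counts within 1.5 times, medians within 1 SD between replicates). The counts that differed between cell types stayed within these bounds as well, except that fits to single cell types cannot test that difference. βOHB called 0 members in each cell type under each setting tried. Library totals alone moved most. They gave 18 raised members in adipocytes, 23 lowered in macrophages, and 16 raised and 33 lowered in myotubes under butyrate, with medians of -0.11, 0.10, -0.13 and -0.15 in adipocytes, macrophages, myotubes and hepatocytes. For butyrate against βOHB they gave 17 members higher in myotubes and medians of -0.0151, 0.11, -0.10 and -0.14, and for βOHB in myotubes a median of -0.0102. Upper quartile scaling gave medians of -0.16 in adipocytes and -0.0129 in macrophages, and for butyrate against βOHB -0.0104 in macrophages and 8 members higher in myotubes. Without a filter on low counts, 6 members were raised in adipocytes and 3 in myotubes, with medians of -0.24 and -0.33, 11 and 1 were higher than under βOHB, and the βOHB median in myotubes was 0.0143. At an unadjusted P below 0.001, 4 members were raised in adipocytes and 4 in myotubes, 9 and 1 were higher than under βOHB, and 26 differed between cell types. The cause was not tested.

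Leaving out each library in turn gave 8 to 10 raised and 35 to 39 lowered members in adipocytes, 19 to 22 and 28 to 34 in macrophages, 7 to 11 and 42 to 50 in myotubes, and 11 to 13 and 39 to 43 in hepatocytes. Medians ran from -0.21 to -0.16 in adipocytes and from -0.13 to -0.0594 in macrophages, from -0.0667 to -0.0112 for βOHB in macrophages, and for butyrate against βOHB from -0.15 to -0.0938 in adipocytes and -0.13 to -0.0598 in macrophages. Members higher under butyrate than βOHB in myotubes numbered 2 to 7. With the replicate number as a block, 10 members were raised and 40 lowered in adipocytes, 22 and 35 in macrophages, 9 and 51 in myotubes, and 12 and 45 in hepatocytes, and 52 differed between cell types. Of 101 calls of named members, compared 1616 times, 1550 kept direction and threshold, 66 lost the threshold and 0 reversed. Depth limits the lowest member, Mrpl23, at 2.22 CPM in adipocyte controls.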

Other observations

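Many members share a promoter region with a neighbour that is transcribed the other way, which was described after seeing the data. Of 19 such pairs of a member and a tested neighbour, both genes were called under butyrate in 9 pairs in adipocytes, 8 in macrophages, 7 in myotubes and 8 in hepatocytes. They were called in the same direction in 3, 1, 1 and 3 of these. Among 675 such pairs of all tested protein-coding genes, 58.1%, 57.8%, 65.1% and 62.6% of the pairs with both genes called had the same direction, against 33.3%, 12.5%, 14.3% and 37.5% of the pairs with a member. The difference was not tested, and the pairs with a member are few.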
